A study of Zea mays subsp. mays and Zea mays subsp. parviglumis and Zea luxurians with 126 samples.

Results

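Cleavage sites of small RNAs in anthers of ago18 heterozygotes were compared with those in anthers of the maize inbred line B73, using the libraries whose sites were called on the same B73 loci. These are 9 of the 63 libraries of the series that have called sites. They are ago18HT at 0.5 mm (2 libraries), B73 at 0.4 mm (2), ago18HT at 2 mm (3) and B73 at 2 mm (2). The sites, called by nanoPARE, are held under sample records titled Smart-seq2, and other records of the same groups are titled nanoPARE. The ago18HT plants are triple heterozygotes, with a single-nucleotide deletion made by CRISPR in ago18a, another in ago18b and a Mu transposon insertion in ago18c, with no transgene. Their background is given as mostly B73, so a part of the genome that is not B73 goes with the genotype. The B73 plants carry no such allele, and replicates came from distinct plants. Anthers of 0.4 and 0.5 mm are premeiotic and those of 2 mm meiotic. At the premeiotic stage a difference in anther length goes with the genotype, and these cannot be told apart. Each library has a table of miRNA sites and a table of phasiRNA sites, with 20992 and 15419 rows over the 9 libraries and 36411 rows in all. Rows were matched by small RNA, target and position of the cut along the target. A row with an adjusted p below 0.05 is said to pass, an interaction is a pair of small RNA and target with a passing site, and a pair is called positive in a group where 2 or more of its libraries have it as an interaction.

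Reproductive phasiRNAs are phased small RNAs cut from long non-coding PHAS precursors. In grass anthers miR2118 cleaves the 21-PHAS precursors, mainly before meiosis, and miR2275 cleaves the 24-PHAS precursors, mainly during meiosis; the cut end sets where Dicer-like proteins begin. Argonaute proteins of the AGO18 group, which is found in grasses, bind reproductive phasiRNAs. The nanoPARE method sequences the 5′ ends of RNAs, so that a slicing event appears as reads that begin opposite the middle of the small RNA.

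The sequences on which the comparison turns are those of the miR2118 and miR2275 families and of 2 phasiRNAs that gave most of the trans sites. They come from the study's annotation of small RNAs. The seed (bases 2 to 8) is in capitals.
miR2118c: uUCCUAAUgccucccauuccua
miR2118b-5p: uUCCCGAUgccucccauuccua
miR2118e: uUCCUGAUgucucccauuccua
miR2118f: uUCCCAAUgccuuccaugccua
21PHAS_54597: uUCCUGAUgccucucauuccua
miR2275c-3p: uUCAGUUUccucuaauaucuca
24PHAS_53395: uUCAGUUUccucuaauaucuca
The 4 members of miR2118 shown differ in the seed. Of the miRNAs shown, miR2118c is the one annotated in B73, and the letters of the others are those of other varieties. The sequence of 21PHAS_54597 is the most abundant small RNA of a 21-PHAS locus at chr10:120346275-120348687 on the minus strand (B73 RefGen_v5). It matched miR2118c, miR2118b-5p and miR2118e at 20 of 22 bases each and miR2118f at 17 of 22, and shared its seed with miR2118e. The sequence of 24PHAS_53395, the most abundant small RNA of a meiotic 24-PHAS locus at chr10:72453877-72454822 on the plus strand, was identical to miR2275c-3p at 22 of 22 bases. Both phasiRNA sequences shown are 22 nt long, so neither is 21 or 24 nt. The names 21-nt and 24-nt phasiRNA used below follow the class of the source locus, not the length of these sequences. The site tables name small RNAs without letters, so it was not tested whether the sites were predicted with these letters.

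RPM, the normalised number of reads whose 5′ end lies at a site, showed steps of 1 read, from which depths of 6.22 to 9.96 M reads were recovered in the ago18HT libraries and of 8.66 to 14.8 M reads in the B73 libraries. The 2 premeiotic ago18HT libraries (9.06 and 6.22 M reads) were shallower than both premeiotic B73 libraries (13.2 and 13.1 M reads). Over both stages depth differed by -0.62 on the log2 scale (ago18HT minus B73; exact permutation within stage, two-sided, p = 0.05, adjusted p = 0.52 over 13 tests, smallest possible p 0.0167). Rows of 1 read or less made up 39.1 to 61.6% of a library. Library 3 of ago18HT at 2 mm stood apart from the others of its group: 1.72% of its miRNA rows and 0.05% of its phasiRNA rows passed, against 5.68 and 6.05% of miRNA rows and 3.98 and 1.9% of phasiRNA rows in the other 2. The stage markers went with the labels in the 4 premeiotic libraries, which had 102 to 129 interactions of miR2118 with 21-PHAS loci and 1 to 4 of miR2275 with 24-PHAS loci. At 2 mm miR2118 had 0 to 4, and miR2275 had 66 and 59 in ago18HT libraries 1 and 2 and 20 in B73 library 1. In ago18HT library 3 and B73 library 2 both families were low, with 2 and 3 miR2275 interactions and 0 and 1 of miR2118. Some results at 2 mm are also given without these libraries. Shared and private pairs were recounted without single ago18HT libraries only. The miRNA family counts and the rows found again were counted with all libraries only.

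Before meiosis the miR2118 program was present in both genotypes in like numbers. The ago18HT libraries had 119 and 102 interactions of miR2118 with 21-PHAS loci, against 111 and 129 in the B73 libraries, and the groups overlapped. The reads at these sites were also of like size: listed miR2118 sites summed to 641 and 458 RPM in ago18HT and to 501 and 676 RPM in B73. Other miRNAs on transcripts gave 77 and 57 interactions in ago18HT against 91 and 69 in B73, with isoforms of a gene counted separately. All miRNA interactions together numbered 209 and 165 in ago18HT, against 214 and 209 in B73. No such number was called different: with both stages together, the log2 differences were 0.09 for miR2118 (adjusted p = 0.867, exact permutation test), -0.65 for other miRNAs on transcripts (adjusted p = 0.52) and -0.20 for all miRNA interactions (adjusted p = 0.768). With 2 against 2 libraries an exact permutation test of a single stage cannot go below p = 0.333.

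**Figure D1:**
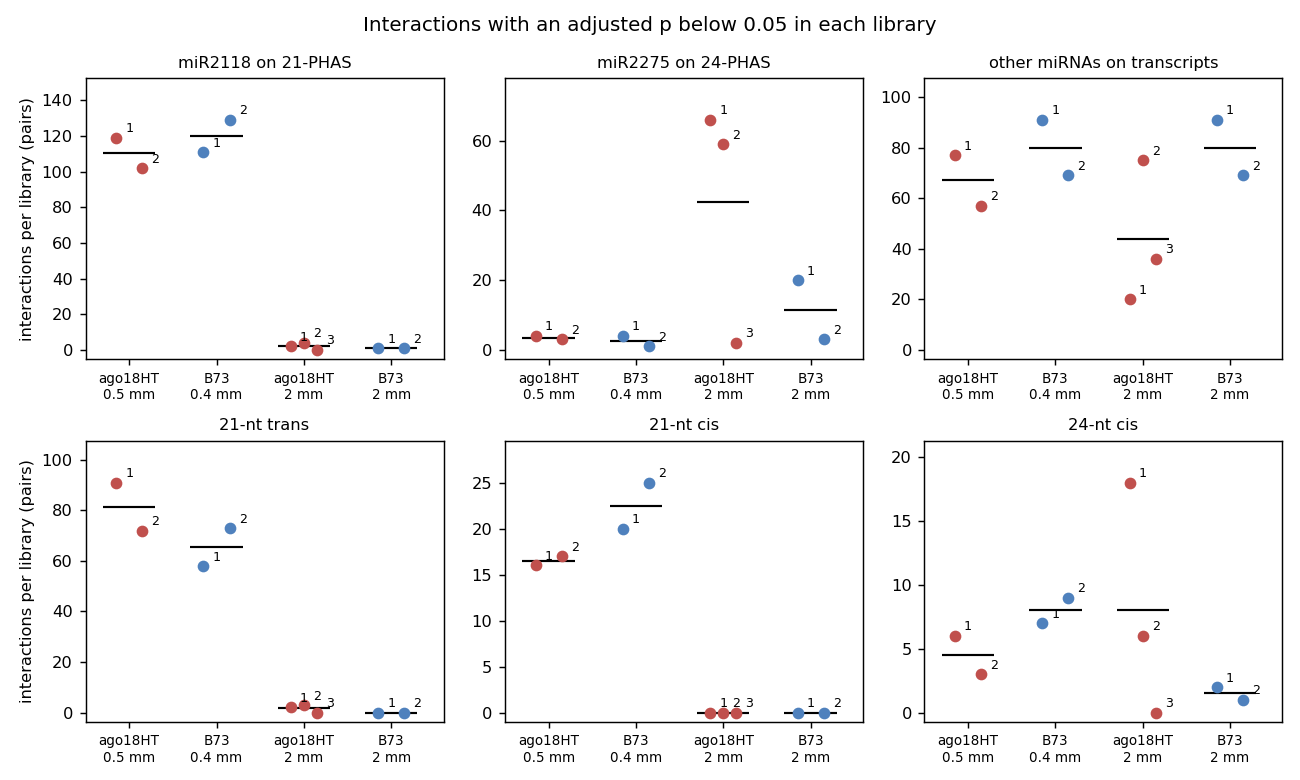
Interactions per library (vertical axes, pairs with an adjusted p below 0.05) for 6 classes, in ago18HT and B73 anthers of each length; points are libraries with their replicate numbers and lines are group means. The premeiotic groups lie at like heights for miR2118 (119 and 102 against 111 and 129), while at 2 mm the miR2275 points of ago18HT spread over 66, 59 and 2.

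Of the positive miRNA pairs before meiosis, 93 were found in both genotypes, 29 in ago18HT only and 51 in B73 only. The shared pairs made up 76.2% of the ago18HT pairs and 64.6% of the B73 pairs. For miR2118 on 21-PHAS loci, 72 pairs were shared, 18 were in ago18HT only and 32 in B73 only. Most private pairs were not missing from the other genotype. Among the 29 in ago18HT only, 18 passed in 1 B73 library, 8 more were listed without passing and 3 were not listed. Among the 51 in B73 only, 25 passed in 1 ago18HT library, 5 were listed without passing and 21 were not listed, of which 10 were miR2118 pairs. These counts take a pair as listed at any cut position. At the position of the site itself, 11 of the 32 miR2118 sites in B73 only were not listed in ago18HT. The 21 pairs not listed went with the shallower ago18HT libraries, and the part of depth in this was not tested.

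**Figure D2:**
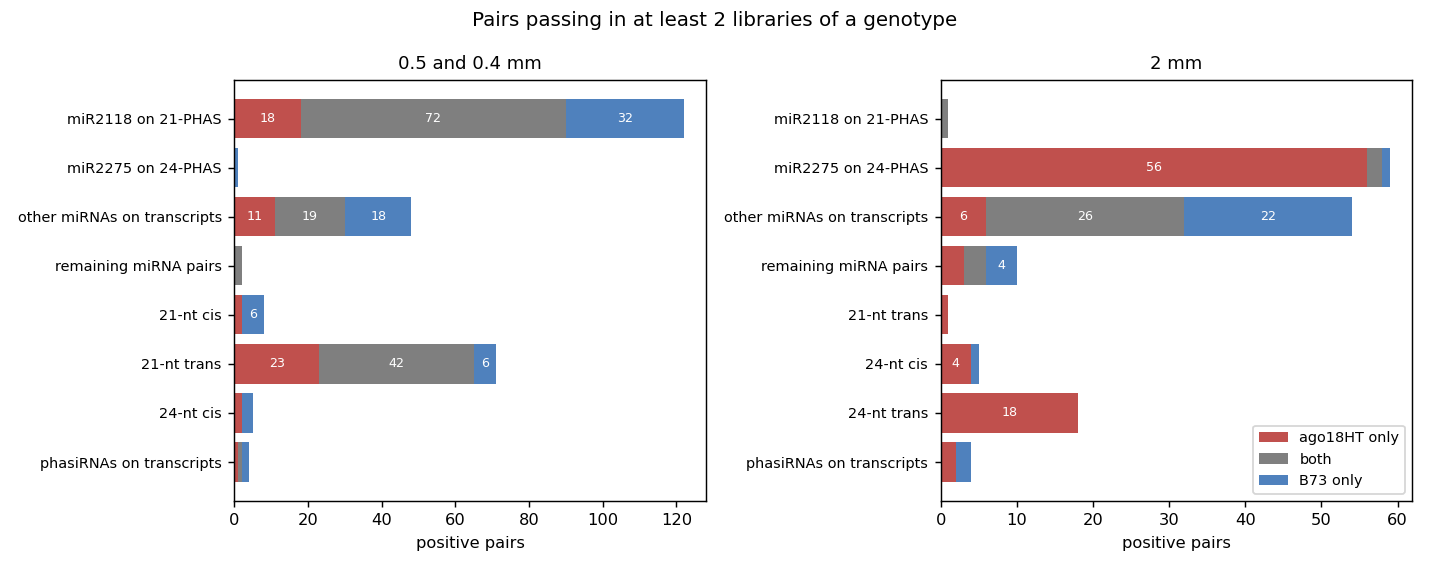
Positive pairs (horizontal axes, number of pairs passing in at least 2 libraries of a genotype) by class, found in ago18HT only, in both genotypes or in B73 only, before meiosis and at 2 mm. At the premeiotic lengths most miR2118 pairs (72) were shared, and at 2 mm 56 of 59 miR2275 pairs were in ago18HT only. At 2 mm a pair needs 2 of 3 ago18HT libraries but both B73 libraries.

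The strongest shared site was that of miR2118g on 21PHAS_21230 (chr4:5700492-5703034), cut at position 1608 of the precursor, with 12.6 and 17.5 RPM in ago18HT against 19.3 and 21.1 RPM in B73. The site of miR2118g on 21PHAS_3911 had 17.5 and 9.49 RPM in ago18HT against 11.6 and 16.2 RPM in B73. For miR2118c on 21PHAS_11112 the values were 12.7 and 14.3 RPM in ago18HT against 11.3 and 11.1 RPM in B73. The genotypes overlapped at the second of these and not at the first and the last, in opposite directions. Some private pairs missed the threshold in a single library of the other genotype. The site of miR2118c on 21PHAS_38583, positive in ago18HT only, had 13.7 and 2.90 RPM there against 4.09 and 6.49 RPM in B73, where its adjusted p was 0.128 in library 1 and listed as 0 in library 2. In the other direction, the site of miR2118d on 21PHAS_28621, positive in B73 only, had 5.85 and 4.34 RPM in ago18HT against 5.00 and 9.39 RPM in B73, and it missed the threshold in ago18HT library 1 at an adjusted p of 0.0633. A different case was miR2118a on 21PHAS_17293 (chr3:114506181-114507100). This site was not listed in either ago18HT library and had 4.62 and 9.93 RPM in the B73 libraries, where 3 reads are 0.227 and 0.229 RPM. A site that is not listed is not a measured 0, so no fold is given.

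Over all shared rows, reads at single cuts agreed between genotypes about as well as between replicates before meiosis. Over the rows shared by 2 libraries, Pearson's r of log2(RPM + 0.01) in the miRNA tables was 0.778 within ago18HT (1 pair of libraries), 0.774 to 0.800 between genotypes (4 pairs) and 0.821 within B73 (1 pair). In the phasiRNA tables it was 0.777 within ago18HT, 0.714 to 0.796 between genotypes and 0.789 within B73. Over rows passing in both libraries, r in the phasiRNA tables was lower between genotypes, at 0.781 to 0.872. It was 0.902 within ago18HT and 0.914 within B73. In the miRNA tables r over such rows was 0.724 to 0.899 between genotypes, 0.8785 within ago18HT and 0.891 within B73. These are descriptions, since sites share libraries, depth and reads. Of 10910 cut positions listed in a premeiotic library, 699 were listed in all 4 and could be tested, 167 of them at miR2118 sites. Many are the same reads on isoforms of a gene or on overlapping loci, so the 699 positions held 386 distinct sets of RPM. In limma 0 positions were higher in ago18HT (0%) and 2 were lower (0.286% of the 699), both at miR2118 sites. At an unadjusted p below 0.05 there were 52 higher and 20 lower, and the median difference over all 699 was 0.22 on the log2 scale, against 0.11 over the miR2118 sites. The libraries of the genotypes did not overlap at 26.5% of positions with ago18HT higher and at 15.6% with ago18HT lower. Of the 167 miR2118 positions, 32 and 29 did not overlap in these directions.

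The first of the 2 positions was the site of miR2118d on 21PHAS_52786 (chr10:24642649-24643531), cut at position 647. It had 0.00552 and 2.20 RPM in ago18HT against 7.87 and 7.71 RPM in B73. Both ago18HT values were lower, and the first is a small fraction of 1 read, as can arise when a read with many mapping places is divided among them. The log2 difference was -5.40 (SE 0.86, limma adjusted p = 3.32e-07). The same SE was found at the other positions named here and as the median of every class. It is thus a spread pooled over positions, and the p-value does not measure the wide gap between the ago18HT values of this site. The second was the site of miR2118e on 21PHAS_6427, with 0.00221 and 0.0804 RPM in ago18HT, both below 1 read, against 0.627 and 0.251 RPM in B73 (log2 difference -3.62, SE 0.86, limma adjusted p = 0.00977). Neither call was left with a pseudocount of 1 RPM or when ago18HT library 1 or library 2 was left out, and 1 of the 2 was left without B73 library 1. Without B73 library 2 both were left and 2 positions were called higher. Each of these fits has 1 library in an arm, which is assumed to vary like the other arm. The next lowest p belonged to miR164g-3p on 2 isoforms of Zm00001eb326230, with 1.55 and 1.13 RPM in ago18HT against 0.0757 and 0.305 RPM in B73, which did not pass (limma adjusted p = 0.0829).

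**Figure D3:**
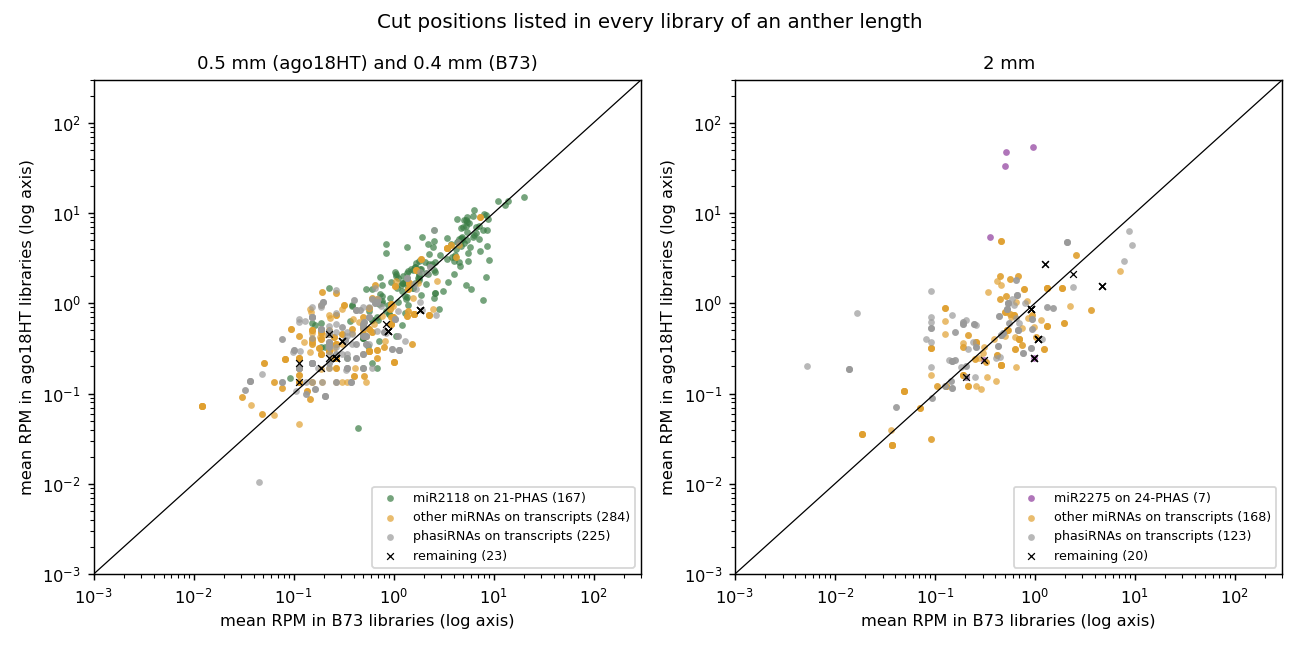
Mean RPM in ago18HT (vertical, log axis) against mean RPM in B73 (horizontal, log axis) at the cut positions listed in every library of a length, 699 before meiosis and 318 at 2 mm, coloured by class; the line marks equal values. Before meiosis the miR2118 points follow the line up to about the highest values, and at 2 mm 4 miR2275 points lie far above it with ago18HT means of 5.44 to 53.6 RPM.

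Sites listed as trans cleavage of 21-PHAS precursors, by phasiRNAs of other loci, passed before meiosis in both genotypes. Almost all of them were listed for the phasiRNA of 1 locus. The ago18HT libraries had 91 and 72 trans interactions of 21-nt phasiRNAs, against 58 and 73 in B73. The phasiRNA 21PHAS_54597 gave 64 of the 69 positive pairs on PHAS loci in ago18HT and 48 of 57 in B73. Its targets, with transcripts and its own locus counted, numbered 91 and 67 per library in ago18HT and 53 and 69 in B73. Most trans sites were also cuts of miR2118. Of the passing trans sites, 90 of 93 and 66 of 73 were also miR2118 sites in ago18HT, and 53 of 60 and 70 of 76 in B73. Since a read cannot tell which of 2 like small RNAs guided the cut, the trans sites of 21PHAS_54597, which matches miR2118c at 20 of 22 bases, and those of miR2118 cannot be told apart. Its strongest shared site, 21PHAS_21230 at position 1608, is the miR2118g site above with the same reads. Trans interactions that were not at a listed miRNA site numbered 3 and 7 in ago18HT against 7 and 6 in B73.

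The trans pairs were shared to a large part, with 42 in both genotypes, 23 in ago18HT only and 6 in B73 only. Of the 23 in ago18HT only, 18 passed in 1 B73 library. On 21PHAS_3901 the phasiRNA 21PHAS_54597 had 13.7 and 8.04 RPM in ago18HT against 4.54 and 8.32 RPM in B73, and on 21PHAS_43228 it had 10.6 and 6.76 RPM in ago18HT against 2.50 and 6.03 RPM in B73. The genotypes overlapped at the first site and not at the second. Both missed the threshold in B73 library 1 alone, with adjusted p of 0.0734 and 0.0506. Over both stages the number of 21-nt trans interactions differed by 0.75 on the log2 scale (adjusted p = 0.52, exact permutation test). Without the 2 phasiRNAs that lead the trans pairs the difference was -0.035.

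Cis interactions, in which a phasiRNA meets the locus it came from, were few and rested on few reads. For 21-nt phasiRNAs there were 16 and 17 in ago18HT and 20 and 25 in B73, and for 24-nt phasiRNAs 6 and 3 in ago18HT and 7 and 9 in B73. The genotypes did not overlap in either class and ago18HT was lower, with log2 differences at this stage of -0.42 and -0.76. Depth and the numbers of listed sites did not overlap either, with ago18HT lower. Interactions of phasiRNAs with transcripts did not overlap in the other direction, with 16 and 9 in ago18HT against 4 and 8 in B73 (log2 difference 0.96). The other classes of interaction overlapped. With 2 against 2 libraries a split without overlap has p = 0.333 in an exact permutation test. With sites kept only at 1 read of the shallowest library or more, the differences over both stages were 0.25 for the 21-nt class, against -0.21 without that limit, and 0.42 for the 24-nt class, against 0.15. Over both stages the exact permutation test gave adjusted p = 0.52 for the 21-nt class and 0.883 for the 24-nt class. No positive cis pair was shared before meiosis: 2 of 21-nt phasiRNAs were in ago18HT only and 6 in B73 only, and for 24-nt phasiRNAs these were 2 and 3. The pair on 21PHAS_10411 had 0.110 and 0.161 RPM in ago18HT, which is 1 read in each library, and was not listed in B73. The pair on 21PHAS_7638, not listed in ago18HT, had 0.454 and 0.916 RPM in B73. Of the cis rows that passed in the 9 libraries, 78 of 79 for 21-nt and 51 of 52 for 24-nt phasiRNAs had an Allen score of 0, the penalty for mismatches, and 49 and 21 of them rested on 1 read or less. The 2 and 3 listed cis rows that did not pass had a score above 0. Every listed cis row with a score of 0 thus passed, whatever its reads, so the cis numbers mainly count loci with a listed read. The premeiotic ago18HT libraries were the shallower, and the part of depth in their lower cis numbers was not tested.

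Premeiotic 24-PHAS loci, a class defined by the study from small RNA abundance, had 0 passing miR2275 sites in all 4 premeiotic libraries. They were reached by cis pairs, at 4 and 2 loci in ago18HT against 6 and 7 in B73. The few passing miR2275 sites at this stage, 4 and 3 in ago18HT and 4 and 1 in B73, lay on meiotic loci where the class of the locus was known. They had at most 0.552 RPM in ago18HT and 0.833 RPM in B73.

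At 2 mm the libraries of each genotype differed widely among themselves. For miR2275 on 24-PHAS loci, ago18HT libraries 1, 2 and 3 had 66, 59 and 2 interactions, against 20 and 3 in B73 libraries 1 and 2. The reads differed far more than the counts: listed miR2275 sites summed to 2465, 833 and 6.09 RPM in ago18HT, against 17.8 and 7.04 RPM in B73. Libraries 1 and 2 of ago18HT thus lay above both B73 libraries and library 3 below both. The mean number was 42.3 ± 35.1 in ago18HT (SD, n = 3) and 11.5 ± 12.02 in B73 (SD, n = 2), a log2 difference at this stage of 1.32. Over both stages the difference was 0.91 (adjusted p = 0.52, exact permutation test), and 3 against 2 libraries alone cannot go below p = 0.1. Leaving out single libraries gave 0.31 to 1.65 over both stages, with 0.31 without B73 library 2. Without both ago18HT library 3 and B73 library 2, a choice made after seeing the data that leaves B73 with 1 library at 2 mm, it was 1.05 (adjusted p = 0.413, exact permutation test).

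**Figure D4:**
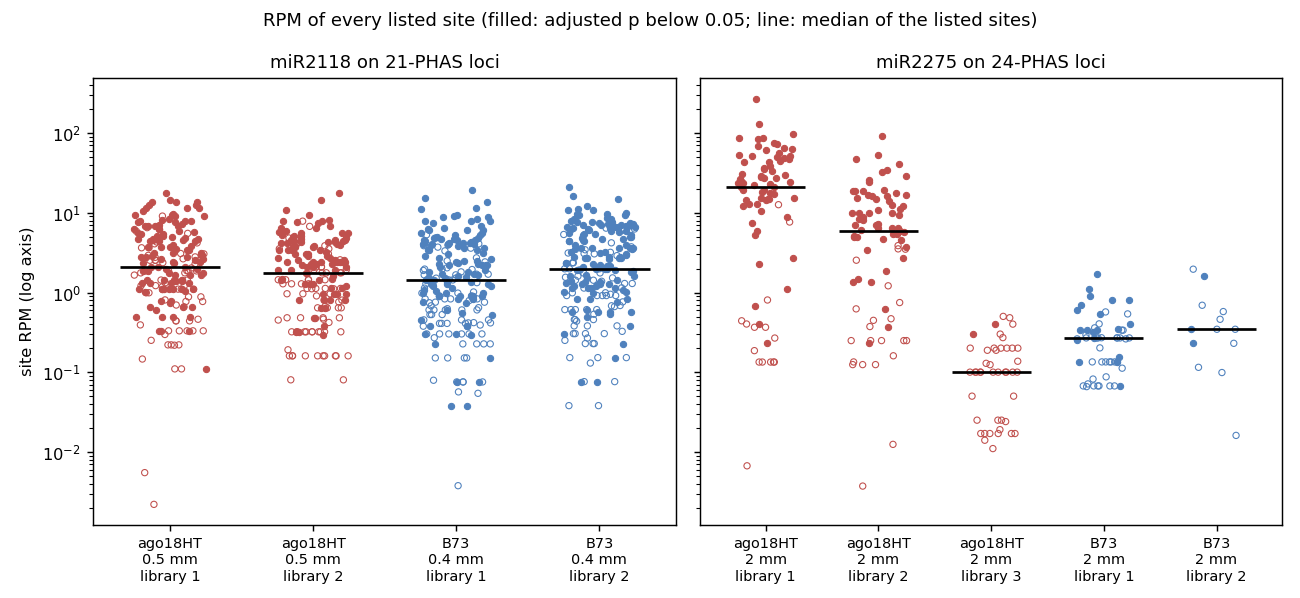
RPM (vertical, log axis) of every listed miR2118 site on 21-PHAS loci in the premeiotic libraries (left) and of every listed miR2275 site on 24-PHAS loci in the 2-mm libraries (right), ago18HT libraries left of B73 libraries; filled points pass and lines are medians of listed sites. The miR2118 medians lie between 1.44 and 2.10 RPM in all 4 libraries, while the miR2275 medians are 21.01, 5.99 and 0.1004 RPM in ago18HT and 0.270 and 0.346 RPM in B73.

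Positive miR2275 pairs on 24-PHAS loci numbered 58 in ago18HT and 3 in B73, of which 2 were shared. The rule is unequal here, since a pair must pass in 2 of 3 ago18HT libraries but in both B73 libraries. The B73 number therefore cannot exceed the 3 interactions of B73 library 2. All 58 passed in ago18HT libraries 1 and 2, with medians of 28.5 and 9.58 RPM. In ago18HT library 3, 28 of the 58 were listed, 2 passed and the median of those listed was 0.1004 RPM. B73 library 1 listed 41, of which 18 passed, with a median of 0.270 RPM, and B73 library 2 listed 5, of which 2 passed, with a median of 0.231 RPM. The same sites were thus seen in B73 at few reads: of the 56 pairs in ago18HT only, 16 passed in 1 B73 library, 24 were listed without passing and 16 were not listed. From the other side, all 20 sites that passed in B73 library 1 were listed and passed in ago18HT library 1, and 20 were listed and 18 passed in ago18HT library 2. In ago18HT library 3, 11 of the 20 were listed, and in B73 library 2, 6 were. The shared and private numbers therefore rest on the libraries. Without ago18HT library 1 the positive miRNA pairs of all classes at 2 mm were 25 shared, 3 in ago18HT only and 34 in B73 only. Without library 2 they were 5, 5 and 54, and without library 3 they were 12, 63 and 47, against 32, 65 and 27 with all 3.

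The highest site of all 9 libraries was that of miR2275a-3p on 24PHAS_32590 (chr5:219764853-219765833), cut at position 698, with 269, 92.2 and 0.201 RPM in ago18HT against 0.0674 RPM, 1 read, in B73 library 1 and no listing in library 2. The site of miR2275a-3p on 24PHAS_4228 had 97.2, 46.7 and 0.1004 RPM in ago18HT against 0.805 and 0.231 RPM in B73. For miR2275d-3p on 24PHAS_29317, 1 of the 2 shared pairs, the values were 128.5, 32.1 and 0.301 RPM in ago18HT against 1.69 and 0.231 RPM in B73. At each of these sites ago18HT libraries 1 and 2 were above B73 and ago18HT library 3 was within or near the B73 values. The other shared pair, miR2275b-3p or miR2275c-3p on 24PHAS_53480, had 28.9 and 9.98 RPM in ago18HT libraries 1 and 2, was not listed in library 3, and had 0.607 and 0.346 RPM in B73. The 1 pair in B73 only was on 24PHAS_6282, at 0.403, 0.250 and 0.1004 RPM in ago18HT against 0.337 and 1.62 RPM in B73. Of 24-PHAS loci classed as premeiotic, 1 had a passing miR2275 site at 2 mm, in ago18HT library 1, and B73 had 0.

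Listed trans sites of 24-nt phasiRNAs on 24-PHAS precursors passed at 2 mm in ago18HT libraries 1 and 2, with 23 and 18 interactions. They passed in neither ago18HT library 3 nor either B73 library. Over both stages the log2 difference was 1.47 (adjusted p = 0.52, exact permutation test), and without ago18HT library 3 and B73 library 2 it was 2.21 (adjusted p = 0.481). The phasiRNA 24PHAS_53395, whose letters are those of miR2275c-3p, had 19, 18 and 0 targets, transcripts included, in ago18HT and 0 and 0 in B73. It gave 17 of the 23 positive pairs on PHAS loci in ago18HT. Of the passing 24-nt trans sites, 18 of 23 and 17 of 18 were also miR2275 sites, where miR2275 and 24PHAS_53395 cannot be told apart. On 24PHAS_48860 (chr9:26391380-26392661) it had 84.5, 34.9 and 0.1004 RPM in ago18HT and was not listed in B73, the same position and reads as the site of miR2275b-3p or miR2275c-3p. On 24PHAS_14671 it had 73.2, 25.7 and 0.272 RPM in ago18HT against 0.914 and 0.0993 RPM in B73, where it was listed with an adjusted p of 0.314 and 0.778. Of the 18 positive 24-nt trans pairs, all in ago18HT only, 12 were listed in B73 without passing and 6 were not listed. Without the 2 leading phasiRNAs, 5, 1 and 0 such interactions were left in ago18HT and 0 and 0 in B73.

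The 24-nt cis interactions at 2 mm numbered 18, 6 and 0 in ago18HT against 2 and 1 in B73, and 21-nt cis interactions were at 0 in all 5 libraries. Over both stages the log2 difference of the 24-nt class was 0.15 with all libraries, 0.0048 without B73 library 2 and 0.59 without that library and ago18HT library 3. None of the 4 cis pairs positive in ago18HT was listed in B73. The one with most reads, on 24PHAS_53482 (chr10:76665159-76666918), had 1.21 and 0.998 RPM in ago18HT libraries 1 and 2. The pair on 24PHAS_28373, positive in B73 only, had 1.08 RPM in ago18HT library 1 against 0.337 and 0.231 RPM in B73. Its reads are shared with transcript Zm00001eb222570_T001, which overlaps the locus.

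Other miRNAs on transcripts, which do not depend on PHAS precursors, went the other way at 2 mm. The ago18HT libraries had 20, 75 and 36 such interactions against 91 and 69 in B73. The ranges overlapped, and over both stages the difference of -0.65 did not pass (adjusted p = 0.52, exact permutation test). Library 1 of ago18HT had the most miR2275 and the fewest of these, and B73 library 1 the most of these. Of the positive pairs, 26 were shared, 6 were in ago18HT only and 22 in B73 only, on 8, 4 and 11 genes. Isoforms of a gene, which can share reads, are counted separately in these pairs and interactions. All 6 in ago18HT only passed in 1 B73 library, while 11 of the 22 in B73 only were not listed in any ago18HT library.

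The strongest miRNA pairs in B73 only at 2 mm were those of miR396, a family known to target growth-regulating factor transcripts. On 2 isoforms of Zm00001eb430300 miR396b-5p had 0.877 and 2.18 RPM in B73, and on 2 isoforms of Zm00001eb071830 it had 0.202 and 2.90 RPM. None of these 4 sites was listed in an ago18HT library. In all, miR396 had positive pairs on 1 gene in ago18HT and on 5 in B73, and per library it reached 1, 2 and 2 genes in ago18HT against 8 and 5 in B73. A site that passed in every 2-mm library was that of a miRNA named miR2275 on 3 isoforms of Zm00001eb035800, with 1.08, 1.37 and 2.21 RPM in ago18HT against 1.55 and 7.85 RPM in B73. Its highest value was in B73 library 2 and its lowest in ago18HT library 1, the library highest at 24-PHAS loci.

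At 2 mm 318 of 12222 cut positions were listed in all 5 libraries, with 143 distinct sets of RPM. In limma 0 positions were called in either direction (0%), 22 were higher and 2 lower at an unadjusted p below 0.05, and the lowest adjusted p was 0.37. The median difference was 0.05 on the log2 scale over all 318 positions. It was 3.32 over the 7 tested miR2275 positions, 4 of them with a positive and 3 with a negative difference, and -0.12 over the 168 of other miRNAs on transcripts. The genotypes did not overlap at 15.4% of positions with ago18HT higher and at 9.75% with ago18HT lower, and at 0 of the 7 miR2275 positions, since ago18HT library 3 was low at each high site. On 24PHAS_4228 the difference was 4.16 on the log2 scale (SE 2.11, limma adjusted p = 0.511). Without ago18HT library 3 it was 7.25 (SE 0.98, limma adjusted p = 4.60e-04), and 8 positions were called higher, at 24PHAS_4228, 24PHAS_14671, 24PHAS_29317, Zm00001eb313690, Zm00001eb428040 and 3 isoforms of Zm00001eb103500. Without B73 library 1, 7 were called higher, 6 of them among those 8, in a fit whose B73 arm is library 2 alone and whose spread comes from the ago18HT libraries. Without B73 library 2, 0 were called. Among transcripts the lowest p belonged to phasiRNA sites, and 1 of the 5 lowest to miR168, a family known to target AGO1 transcripts. Its site on Zm00001eb026350 had 1.75, 0.499 and 0.402 RPM in ago18HT against 0.135 and 0.115 RPM in B73, with no overlap, and did not pass (log2 difference 2.41, SE 0.90, limma adjusted p = 0.461).

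Agreement of RPM at 2 mm also followed the library. In the miRNA tables r was 0.222 to 0.821 within ago18HT (3 pairs of libraries), 0.244 to 0.595 between genotypes (6 pairs) and 0.494 within B73 (1 pair). In the phasiRNA tables it was 0.3002 to 0.701 within ago18HT, 0.347 to 0.585 between genotypes and 0.564 within B73. The values between genotypes lay inside the range within ago18HT in both kinds of table, but its low end came from pairs with library 3. In the miRNA tables ago18HT libraries 1 and 2 gave 0.821 with each other, and 0.222 and 0.381 with library 3. Against B73, libraries 1 and 2 gave 0.244 to 0.484 and library 3 gave 0.548 and 0.595. Over miRNA rows passing in both libraries, r was -0.062 to 0.681 between genotypes. It was 0.245 to 0.963 within ago18HT and 0.615 within B73.

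Any single pair of libraries shared a minority of listed rows, within a genotype or between genotypes. Before meiosis a library shared 31.6 to 43.2% of its miRNA rows with the other library of ago18HT, 26.7 to 42.0% with a library of the other genotype and 38.0 to 39.0% with the other library of B73. With a row counted for a genotype where at least 2 of its libraries list it, 472 miRNA rows were in both genotypes, 331 in ago18HT only and 581 in B73 only, and a row of the last kinds may still be listed in 1 library of the other genotype. With 1 library enough, 1553 were in both, 2045 in ago18HT only and 2866 in B73 only. By the first count phasiRNA rows were 326, 282 and 393. At 2 mm, where ago18HT has 1 library more, the numbers of rows in both, in ago18HT only and in B73 only were 371, 904 and 415 for miRNAs and 224, 759 and 219 for phasiRNAs.

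Whether a row was found again went with its reads. Of the premeiotic miRNA rows of ago18HT, 50.0% were listed in a B73 library, 36.1% of those with 1 read or less and 98.5% of those with more than 10 reads. Of the B73 rows, 41.4% were listed in an ago18HT library, 29.6% of those with 1 read or less and 89.4% of those with more than 10 reads. Passing rows were found again more often than all rows, at 85.7% for ago18HT and 71.9% for B73. At 2 mm the shares for passing miRNA rows were 71.6% for ago18HT and 69.5% for B73. The exception was the passing phasiRNA rows of ago18HT at 2 mm, of which 32 of 88 (36.4%) were listed in B73, below the 41.8% of all its phasiRNA rows.

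**Figure D5:**
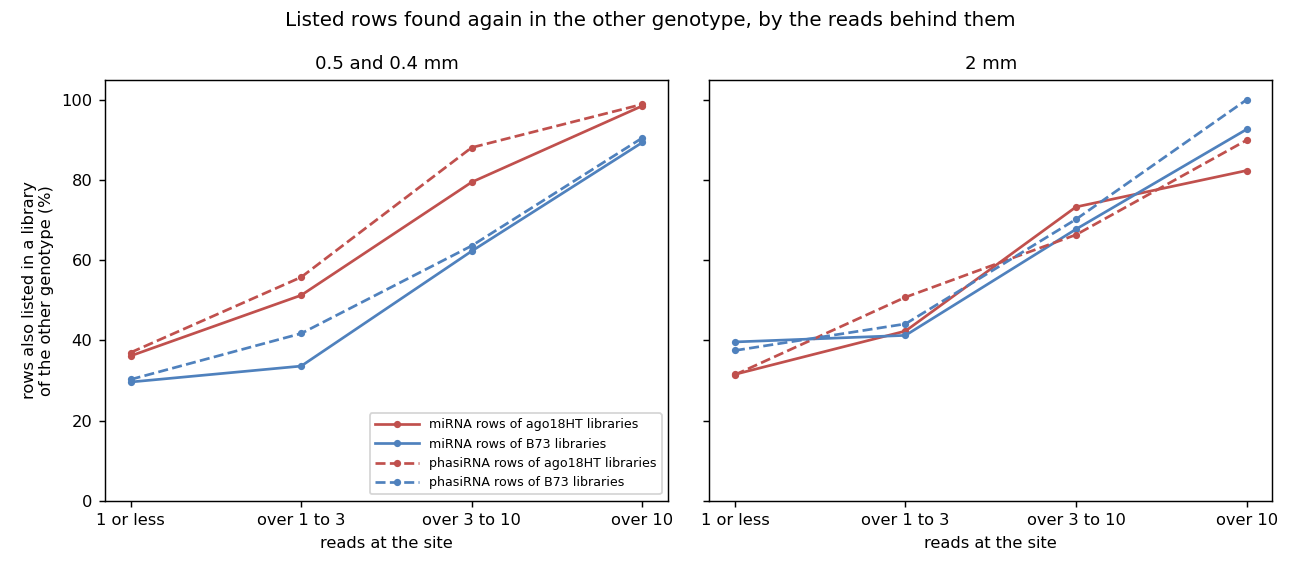
Share of listed rows (vertical, percent) that were also listed in a library of the other genotype, by the reads at the site (horizontal), for miRNA tables (solid) and phasiRNA tables (dashed) of ago18HT and B73. The shares run from 36.1% of ago18HT and 29.6% of B73 miRNA rows at 1 read or less to 98.5 and 89.4% at more than 10 reads before meiosis.

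The AGO18 genes themselves were hardly listed as targets. No library listed a site on AGO18a or AGO18c. On AGO18b (Zm00001eb050240) 1 position, 2830, was listed for phasiRNA 21PHAS_11728 at 2 mm, with 1.37 RPM in ago18HT library 2 and 0.301 RPM in library 3, against 0.607 and 0.231 RPM in B73. Its adjusted p was 1 in all 4 libraries, and it was not listed in ago18HT library 1.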

How the data were processed

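The 18 deposited tables of the 9 libraries were used, called by the authors with the nanoPARE pipeline (EndCut step) per library on B73 RefGen_v5 loci and transcripts. The pipeline's version is not given in the sources used here. The RPM of a site, deposited by the authors, counts reads whose 5′ end lies there, normalised to library depth. Fractions of a read occur, as when reads with several mapping places are divided, and 82.8 to 87.4% of positions were whole reads within 0.01 read, so no count test was run. The Allen score (0 to 6), a mismatch penalty, and the adjusted p-value were deposited by the authors. Their fold-change column, a ratio to a local background, was not used. Of all rows, 1834 had an adjusted p below 0.05, 1293 for miRNAs and 541 for phasiRNAs.

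Classes followed the names of small RNA and target. Loci coordinates, classes and letters came from the study's annotation tables. Distinct cut positions listed in every library of a length were compared by limma 3.58.1 (R 4.3.3) on log2(RPM + 0.01) with Benjamini-Hochberg adjustment. Numbers per library, as log2(number + 1), were compared by exact two-sided permutation within stage (60 labelings), adjusted over 13 tests (Python 3.11.15, scipy 1.17.1). The scripts were tested on simulated data. P-values measure only the spread between these libraries, and those of limma before meiosis a spread pooled over positions. Pairs named in the text were the strongest shared and private positive pairs (up to 5 of each kind), the positions called or with the 5 lowest p, all sites on AGO18 genes, the leading phasiRNA loci and miRNA families with known targets. Some further pairs of these classes, among them all cis pairs, the tested miR2275 positions and those called without a library, were named after their values were seen. Members and lists were chosen with earlier results of these data known. Gene IDs had no match in the symbol table at hand. The 3-read limit covers counting error only.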

Additional observations from a re-analysis of the deposited data

How the results depend on the processing

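Of 341 recomputed values, 15 changed direction and 45 of the shares, correlations and counts of called positions moved. Shares and correlations moved beyond their spread, and counts of called positions moved beyond a fixed ratio or to or from 0, with no spread used. For numbers per library only the direction and the threshold were compared, so their size can differ. With sites of at least 1 read of the shallowest library, the log2 difference (ago18HT minus B73) of listed sites turned to 0.25 for miRNAs and 0.30 for phasiRNAs, that of miR2118 interactions to -0.12 and that of 21-nt cis interactions to 0.25, and shared listed sites were 45.4% (miRNA) and 41.4% (phasiRNA) of those in either genotype before meiosis, from 34.1 and 32.6%, and 21.1% for phasiRNAs at 2 mm, from 18.6%. Under that limit shared positive miRNA pairs at 2 mm were 14.6%, from 25.8%, and the median r there was 0.251, from 0.465. Without the log, miR2118 interactions differed by -4.25. As shares of listed pairs that pass, the differences were 0.50 points for all miRNA interactions, -9.46 for miR2118 and -16.8 for 24-nt cis. Leaving out the 2 leading phasiRNAs, or trans sites at miRNA sites (chosen after seeing the data), turned 21-nt trans to -0.035. Leaving out single libraries gave -0.40 to 0.052 for all miRNA interactions, -0.16 to 0.42 for miR2118 and -0.32 to 0.74 for 24-nt cis. None of these numbers passed under any setting.

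Counting a site in at least 1 library gave shared listed sites of 24.0% (miRNA) and 25.5% (phasiRNA) before meiosis and 22.9% for phasiRNAs at 2 mm, and shared positive pairs of 44.7% (miRNA, from 53.8%) and 37.7% (phasiRNA, from 48.9%) before meiosis. Requiring every library gave 19.9% of listed miRNA sites at 2 mm, from 22.0%, and 8.07% of positive miRNA pairs. An adjusted p below 0.01 gave 39.6% of positive miRNA pairs before meiosis and 16.1% at 2 mm, and an Allen score of at most 4 gave 61.2% before meiosis. Without single ago18HT libraries the 2-mm shares were 17.9 to 25.2% of listed miRNA sites, 17.6 to 22.9% of listed phasiRNA sites and 7.81 to 40.3% of positive miRNA pairs. Over sites passing in both libraries the median r between genotypes was 0.825 (miRNA, from 0.785) and 0.837 (phasiRNA, from 0.759) before meiosis and 0.256 for miRNAs at 2 mm; with log2(RPM + 1) it was 0.849, 0.854 and 0.262.

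Of the 2 positions lower in ago18HT before meiosis, 1 of the same positions was left with a pseudocount of 0.1 RPM, and 0 with a pseudocount of 1 RPM, a mean of at least 0.5 RPM, median centring, identical RPM counted once or passing positions alone. A variance trend gave 1 higher position. Without single libraries there were 0 to 2 lower and 0 to 2 higher positions before meiosis, and 0 to 8 higher and 0 lower at 2 mm. Replicate numbers did not pair the libraries: deviations of same-numbered libraries correlated at -0.12 and -0.12 before meiosis and at -0.01 and 0.12 at 2 mm. With a replicate block, 0 positions were lower before meiosis, 15 were higher and 1 lower at 2 mm, where ago18HT library 3 has no partner, and all miRNA interactions differed by 0.052. Crossing the premeiotic numbers, added after seeing the data, gave 2 higher. The cause of these changes was not tested.

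Of all rows of a library, 39.1 to 61.6% rest on 1 read or less, and a site not listed is not a measured 0. The part of depth in the private sites was not tested. The 2-mm comparison rests on libraries that differ within each genotype.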

Other observations

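Among miRNA families with known plant targets, miR160, which targets auxin response factor transcripts, had positive pairs on 5 genes in ago18HT and 5 in B73 at 2 mm, of which 4 were shared. Before meiosis it had 2 genes in ago18HT and 5 in B73, with 1 shared. Its strongest shared site at 2 mm, on Zm00001eb273540_T001, averaged 0.408 RPM in ago18HT and 0.308 RPM in B73. Family miR171, known for GRAS transcripts, reached 4 genes in ago18HT and 4 in B73 before meiosis, with 3 shared, and its site on Zm00001eb186770_T001 averaged 0.301 RPM in ago18HT and 0.684 RPM in B73. Family miR169, known for NF-YA transcripts, had 8 positive pairs in ago18HT and 2 in B73 before meiosis, on 2 genes and 1 gene. Per library it then reached 3 and 3 genes in ago18HT against 1 and 3 in B73. At 2 mm it had 9 positive pairs in ago18HT and 13 in B73, on 2 genes in each genotype. For miR164, known for NAC transcripts, the 3 positive pairs before meiosis were shared by both genotypes, on 2 genes. The site of miR528 on Zm00001eb324900_T001 was shared at both stages, with means of 0.708 RPM in ago18HT and 0.9501 RPM in B73 before meiosis and of 0.846 RPM in ago18HT and 3.68 RPM in B73 at 2 mm. The family of miR166, known for HD-ZIP III transcripts, had 0 positive pairs in ago18HT and 5 in B73 before meiosis, on 1 gene, and reached 0 and 0 genes per library in ago18HT against 3 and 2 in B73. None of these family counts was tested, and isoforms of a gene share reads.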
